A study of Sus scrofa with 10 samples.

Results

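Complement is a cascade of plasma and membrane proteins that marks targets for removal and can perforate membranes. C1q starts the classical route, C4 and C2 form the enzyme that splits C3, and the late components assemble the pore, while receptors and inhibitors such as CR1 and CD59 restrain it. Much of the plasma complement comes from the liver, and macrophages and stromal cells make some components locally. The genes described here are 7 complement components and regulators, C1QA, C1QB, C2, C3, C4A, CR1 and CD59. They were chosen by symbol, through probe sets to which the array annotation gives exactly 1 symbol. For 6 of the 7 genes such a probe set was found, 7 of 23999 probe sets in all, and C1QB was not analysed here. Each gene was read through its brightest probe set over all arrays, which gave 6765 genes.

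The RNA of aortic valve leaflets, the thin flaps of the valve, was measured on Affymetrix porcine arrays in female swine fed standard chow. Adult RFH swine (4 arrays) were 2 years old and of the Rapacz Familial Hypercholesterolemic breed, which has inherited high blood cholesterol. Juvenile RFH swine (3 arrays) were of the same breed and 3 months old. Juvenile WT swine (3 arrays) were Rapacz Wisconsin Miniature Swine labelled wild type (RFH -/-), also 3 months old, so breed name and genotype cannot be told apart. Age and the course of the disease cannot be told apart either, because adult wild-type valves were not analysed here. The labels number the arrays but do not state that each came from a separate animal, so the p-values rest on the spread between these arrays, which may be technical.

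All values are log2 expression values as deposited, and a difference of 1 is a doubling. Array medians lay between 6.96 and 7.03, and the median SD of a probe set was 0.19 in the adult RFH leaflets, 0.13 in the juvenile RFH leaflets and 0.09 in the juvenile WT leaflets. Valve interstitial markers were bright, with list means of 11.46 to 11.95 in the adult RFH leaflets, 12.19 to 12.27 in the juvenile RFH leaflets and 12.28 to 12.36 in the juvenile WT leaflets. Juvenile RFH replicate 2 stood apart by its cardiac muscle markers, whose mean was 9.52, against 5.10 to 5.79 in the other 9 arrays. Adult RFH replicate 3 stood apart in controls of RNA quality. Its value was 12.49 against 13.23 to 13.84 in the other 9 arrays for one small-subunit ribosomal RNA probe set, 9.45 against 6.96 to 8.28 for another, and 11.88 against 12.55 to 13.74 for the 5' part of EF1A. Without it the same 4 complement genes were called between adult and juvenile RFH as with it. These controls also differed between groups. The first small-subunit probe set was 12.49 to 13.35 in the adult RFH arrays and 13.57 to 13.84 in the juvenile arrays. The second was 8.10 to 9.45 in the adult RFH arrays and 6.96 to 7.65 in the juvenile arrays. The 5' part of EF1A was 11.88 to 13.35 in the RFH arrays of both ages and 13.48 to 13.74 in the juvenile WT arrays. A large-subunit ribosomal RNA probe set was lower in all adult RFH arrays, 13.14 to 13.79, than in the juvenile arrays, 14.06 to 14.14. Bacterial poly-A control probe sets (36 for 4 transcripts) averaged 7.20 to 7.60 in the adult RFH leaflets, 6.52 to 6.54 in the juvenile RFH leaflets and 6.70 to 6.84 in the juvenile WT leaflets. The adult mean lay 0.84 above that of juvenile RFH, with p = 0.0286 by a two-sided exact permutation test, the lowest value possible for 4 against 3. Juvenile RFH minus WT was -0.24, with an exact p of 0.1, the lowest possible for 3 against 3. Neither scan dates nor batches are labelled, and the part of these differences in the values below was not tested.

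Of the 6 complement genes, 4 rose in adult RFH against juvenile RFH leaflets, namely C2, C4A, C1QA and CD59, and none fell. The background was 11.4% of all genes that rose in this comparison and 7.85% that fell. Juvenile RFH against juvenile WT leaflets gave 1 called gene, CR1, which was higher, beside a background of 0.0887% of genes that rose and 0.0443% that fell. Adult RFH against juvenile WT, where age and genotype both differ, gave 6 of 6 genes higher, beside 22.7% of all genes called higher and 10.6% called lower. Rose, fell and called mean an adjusted p under 0.05 in limma over all 23999 probe sets. The comparisons share arrays, so their changes are given side by side and are not independent.

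**Figure D1:**
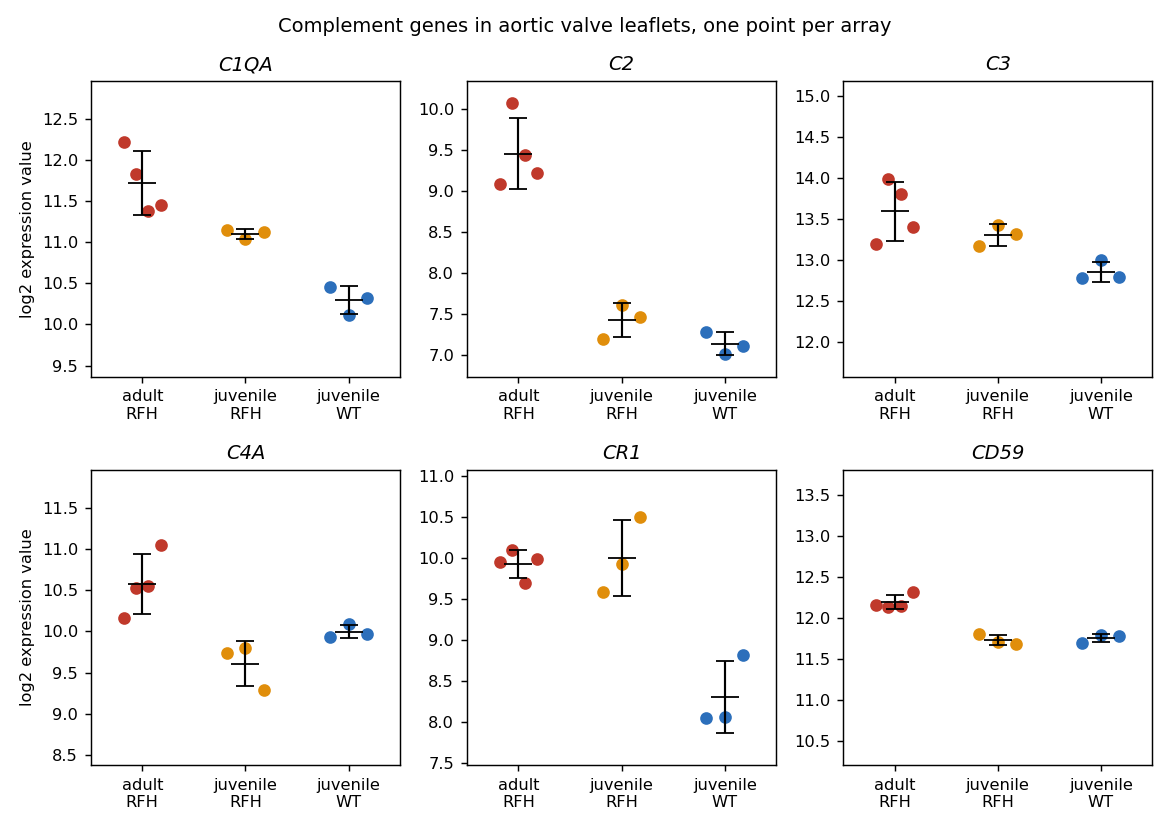
Log2 expression values (y axis, each panel spanning the same number of log2 units) of 6 complement genes in adult RFH, juvenile RFH and juvenile WT arrays; points are arrays, the wide bar is the group mean and the error bar its SD. C2 and CD59 sit higher in the adult RFH arrays than in both juvenile groups, CR1 sits lower in the WT arrays than in both RFH groups, and C1QA lies in 3 separate steps.

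C1QA encodes one of the chains of C1q, the molecule that recognises antibody complexes and dying cells, and tissue C1q is made mostly by macrophages. The porcine gene (NCBI Gene 445461) read 12.22, 11.83, 11.38 and 11.45 in the adult RFH leaflets, 11.15, 11.04 and 11.12 in the juvenile RFH leaflets and 10.45, 10.11 and 10.33 in the juvenile WT leaflets. The 3 groups did not overlap, and the adults were spread most, with replicates 1 and 2 above 3 and 4. The adult mean of C1QA was 11.72 ± 0.39 (SD, n = 4), against 11.10 ± 0.06 (SD, n = 3) in the juvenile RFH leaflets, a rise of 0.62 ± 0.18 (SE, limma adjusted p = 0.0418) or 1.53-fold. This call was close to the threshold and was lost in 11 of 21 alternatives, with a change of 0.45 to 0.73 and an adjusted p of 0.0174 to 0.109 over all of them. It ended without adult RFH replicate 1 or 2 or any single juvenile array. Leaving out adult RFH replicate 1 gave 0.45 (adjusted p = 0.0544), and leaving out juvenile RFH replicate 2, the array with cardiac markers, gave 0.58 (adjusted p = 0.109).

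Juvenile RFH lay 0.81 ± 0.19 (SE) above juvenile WT in C1QA, 1.75-fold with a 95% interval of 1.30 to 2.36, which did not pass (limma adjusted p = 0.139). In a fit of only these 2 groups, which leaves out the wider spread of the adult arrays, the adjusted p was 0.0174, and with array weights it was 0.0131. Those fits called more of all genes, 3.62% and 4.21% of genes higher in juvenile RFH. Adult RFH leaflets lay 1.42 ± 0.18 (SE) above juvenile WT leaflets, 2.68-fold (adjusted p = 0.000559).

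C4A encodes component C4, whose large fragment attaches to the target and anchors the classical C3-splitting enzyme. C4A (NCBI Gene 445467) read 10.17, 10.53, 10.56 and 11.05 in the adult RFH leaflets, 9.74, 9.79 and 9.29 in the juvenile RFH leaflets and 9.94, 10.09 and 9.97 in the juvenile WT leaflets. No pair of groups overlapped, and juvenile RFH was the lowest of the 3. The rise in adult RFH over juvenile RFH was 0.97 ± 0.19 (SE, limma adjusted p = 0.00712), 1.96-fold with a 95% interval of 1.47 to 2.62. It passed in 21 of 21 alternatives, with 0.81 to 1.11. Juvenile RFH differed from juvenile WT by -0.39 ± 0.20 (adjusted p = 0.46), which did not pass, and adults lay 0.58 ± 0.19 above WT (adjusted p = 0.0409). That last call was lost in 11 of 21 alternatives, with an adjusted p of up to 0.122, and in 7 of these 1 array was left out, adult RFH replicate 2, 3 or 4, juvenile RFH replicate 1 or any juvenile WT array. The array annotation gives C4A only, and whether these probes read another C4 copy was not tested.

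C2 encodes the protease that joins C4 in that enzyme, and it showed the widest change of the 6 genes between adult and juvenile RFH. C2 (NCBI Gene 448981) read 9.09, 10.07, 9.44 and 9.22 in the adult RFH leaflets, 7.20, 7.61 and 7.47 in the juvenile RFH leaflets and 7.29, 7.01 and 7.12 in the juvenile WT leaflets. Every adult array lay more than 1 log2 unit above every juvenile array, and the 2 juvenile groups overlapped. C2 rose by 2.03 ± 0.21 (SE, limma adjusted p = 0.000219) in adult RFH against juvenile RFH, 4.08-fold with a 95% interval of 2.97 to 5.60. Over the 21 alternatives the fold was 3.54 to 4.44 and each passed. The juvenile RFH mean, 7.43, was 0.29 ± 0.22 above the WT mean, 7.14 (adjusted p = 0.645). The juvenile values lie close to the array medians, where the fold of a dim probe set moves with the background correction, which the sources used here do not give.

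In the RefSeq gene table of the Sscrofa11.1 assembly, C2 lies next to CFB, which encodes factor B, the corresponding protease of the alternative pathway, and 5 genes separate C2 from C4A. The brightest CFB probe set averaged 5.74 in the adult RFH leaflets, 5.78 in the juvenile RFH leaflets and 5.79 in the juvenile WT leaflets, under the array medians. Its change between adult and juvenile RFH was -0.04, with a 95% interval of -0.31 to 0.24. The dimmer CFB probe set rose by 0.57 (adjusted p = 0.0367), so the 2 probe sets of CFB disagree. C1QA stands in a row with C1QC and C1QB in the same table, and CR1 is separated from CD55 by 1 gene.

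C3 encodes the central component, on which all routes converge. C3 (NCBI Gene 397072) read 13.20, 13.98, 13.80 and 13.40 in the adult RFH leaflets, 13.17, 13.43 and 13.32 in the juvenile RFH leaflets and 12.77, 13.00 and 12.79 in the juvenile WT leaflets. The RFH groups overlapped, and all 7 RFH arrays lay above the 3 WT arrays. Neither adjacent step passed, with 0.29 ± 0.17 (SE, limma adjusted p = 0.289) for adult against juvenile RFH and 0.45 ± 0.19 (adjusted p = 0.347) for juvenile RFH against WT. In the fit of only the 2 juvenile groups the second step had an adjusted p of 0.0546. Adult RFH stood 0.74 ± 0.17 above juvenile WT, 1.67-fold with a 95% interval of 1.28 to 2.18 (adjusted p = 0.01), and this passed in 21 of 21 alternatives.

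CR1 encodes complement receptor 1, which in humans binds deposited C3 and C4 fragments on blood cells and speeds the decay of the C3-splitting enzymes. CR1 (NCBI Gene 100623585) read 9.95, 10.10, 9.69 and 9.98 in the adult RFH leaflets, 9.58, 9.92 and 10.50 in the juvenile RFH leaflets and 8.05, 8.07 and 8.81 in the juvenile WT leaflets. All RFH arrays lay above all WT arrays, of which replicate 3 was the highest, while the adult values fell inside the range of juvenile RFH. With SDs of 0.46 in juvenile RFH and 0.44 in juvenile WT (n = 3 each), CR1 rose in juvenile RFH by 1.69 ± 0.25 (SE, limma adjusted p = 0.0485), 3.24-fold, with a 95% interval of 2.21 to 4.74. It was one of 9 genes called in this comparison. Adult RFH lay 1.62 ± 0.23 above juvenile WT (adjusted p = 0.001), which passed in 21 of 21 alternatives. Between adult and juvenile RFH the change was -0.07 ± 0.23 (adjusted p = 0.867), with a 95% interval of -0.59 to 0.44.

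The CR1 call between the juvenile groups held in 11 of 21 alternatives and was lost in 10, always with a positive change of 1.45 to 1.95. Without juvenile RFH replicate 3 it was 1.45 (adjusted p = 0.121) and without replicate 2 it was 1.73 (0.12). Leaving out WT replicate 1 or 2 gave 1.56 (0.242) and 1.57 (0.235), and leaving out WT replicate 3 gave 1.95, which passed. The call also ended without adult RFH replicate 1 (0.0567) or 4 (0.0643), which changes only the shared spread and the adjustment, and in 4 alternatives that left out no array by design, one of them the replicate block, to which adult RFH replicate 4 adds nothing.

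**Figure D2:**
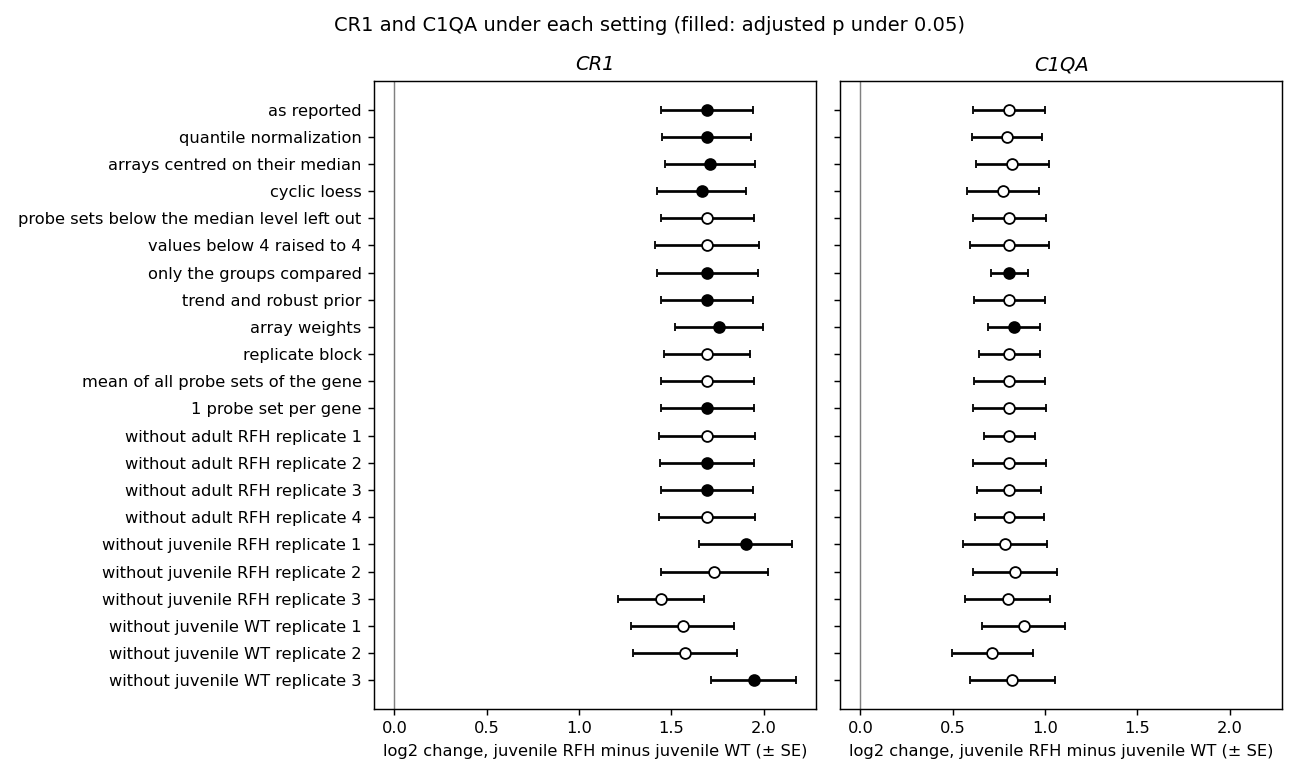
Log2 change of CR1 and C1QA, juvenile RFH minus juvenile WT (x axis, point ± SE), under each setting (rows); filled points have an adjusted p under 0.05. CR1 stays between 1.45 and 1.95 and C1QA between 0.71 and 0.88. CR1 passes in 11 of 21 alternatives and C1QA in 2.

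CD59 encodes a membrane protein that stops the last step of pore assembly. The brightest probe set of CD59 (NCBI Gene 397347) read 12.16, 12.14, 12.15 and 12.32 in the adult RFH leaflets, 11.80, 11.71 and 11.69 in the juvenile RFH leaflets and 11.70, 11.79 and 11.78 in the juvenile WT leaflets. The adults lay above both juvenile groups, which overlapped, and the spread within groups was small. CD59 rose by 0.46 ± 0.08 (SE, limma adjusted p = 0.005) in adult against juvenile RFH, 1.37-fold with a 95% interval of 1.21 to 1.56, and passed in 21 of 21 alternatives. Juvenile RFH and juvenile WT differed by -0.02 (adjusted p = 0.948), with a 95% interval of -0.22 to 0.17.

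Another, dimmer CD59 probe set read 9.74, 9.53, 8.79 and 9.67 in the adult RFH leaflets, 9.23, 8.90 and 8.85 in the juvenile RFH leaflets and 9.04, 9.13 and 9.35 in the juvenile WT leaflets. Adult RFH replicate 3 was the lowest of all 10 arrays there, and the groups overlapped. Its change between adult and juvenile RFH was of like size, 0.44 ± 0.21 (SE), but did not pass (adjusted p = 0.182). Against juvenile WT the adults differed by 0.43 ± 0.08 in the brightest probe set (adjusted p = 0.00382) and by 0.26 ± 0.21 in the dimmer one (adjusted p = 0.399).

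**Figure D3:**
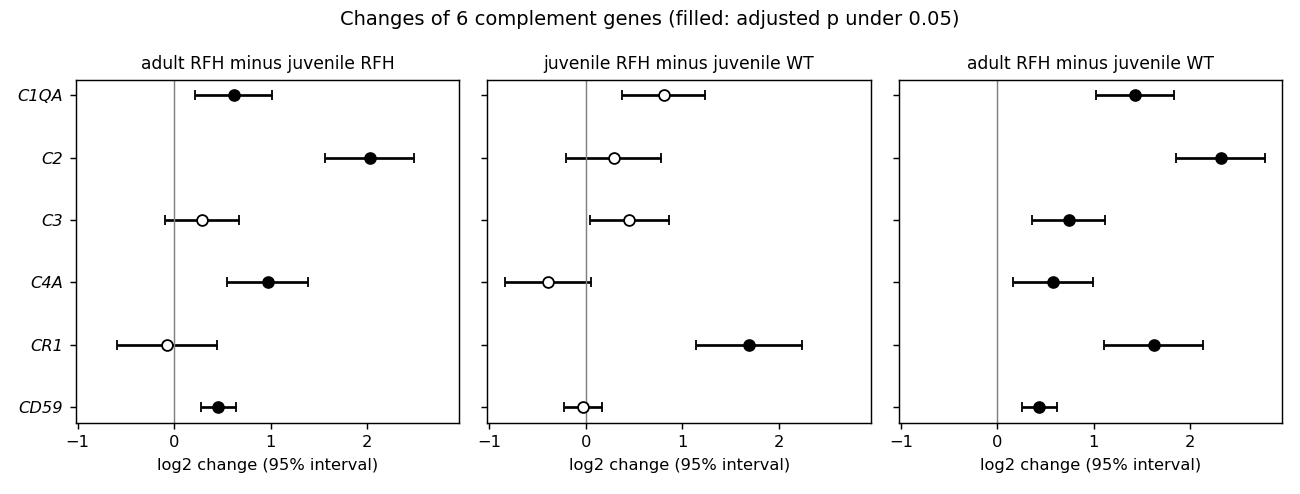
Log2 change (x axis) of each complement gene with its 95% interval in the 3 comparisons; filled points have an adjusted p under 0.05. C2 has the widest rise between adult and juvenile RFH, 2.03, and CR1 is the gene called between juvenile RFH and juvenile WT, at 1.69.

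The order of the group means thus differed from gene to gene. C1QA, C2 and C3 were highest in adult RFH and lowest in WT, where the juvenile groups of C2 and the RFH groups of C3 did not differ beyond their spread. In CD59 the adults stood above 2 juvenile groups that did not differ beyond their spread, and in CR1 both RFH groups stood above WT. In C4A juvenile RFH had the lowest mean, below WT without overlap. Groups did not overlap in adult against juvenile RFH for 4 genes, all higher, beside 16.6% of all genes. In juvenile RFH against WT they did not overlap for 3 genes that were higher, C1QA, C3 and CR1, and for C4A, which was lower, beside 26.3% and 9.53% of all genes. Adult RFH lay above WT without overlap in all 6 brightest probe sets, beside 28.9% of all genes. The median change of the 6 genes was 0.54 in adult against juvenile RFH and 0.37 in juvenile RFH against WT, where the medians over all genes were 0.02 and 0.07.

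The likeness of profiles was measured over the 10 arrays as the root mean square difference between values centred on each gene's mean. Among the 6 genes C4A and CD59 were nearest, at 0.29, and C2 and CR1 farthest, at 0.94. The measure is not scaled to the size of the changes, so genes that vary little come out near each other. The profile of CD59 itself had a root mean square of 0.23, less than its difference from C4A. Of all 6765 genes the nearest to C1QA were CD300C (0.15) and IFI30 (0.16), to C2 TIMP1 (0.18) and CYCS (0.23), and to C3 TMEM86A (0.12) and HYOU1 (0.13). The nearest to C4A were KLF4 (0.20) and RLIM (0.21), and to CD59 VPS41 and LRRC8A, each at 0.07 to 0.08. For CR1 the nearest gene, CCL8, was still 0.40 away, where the profile of CR1 itself had a root mean square of 0.81.

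Of 46 other complement genes, 27 had a probe set, and 6 of the 27 rose in adult against juvenile RFH with none falling, beside 11.4% of all genes. Their median change was 0.31, against 0.02 over all genes. In the alternative pathway, CFD, the protease that activates factor B, rose by 0.79 ± 0.23 (SE, limma adjusted p = 0.0372). Properdin (CFP), which stabilises the C3-splitting enzyme of that pathway, rose by 0.78 ± 0.16 (adjusted p = 0.00874). The dimmer CFP probe set rose by 0.51 (adjusted p = 0.0251). Among soluble regulators 1 of 6 rose, C4BPA, the alpha chain of C4b-binding protein, at 0.66 ± 0.14 (adjusted p = 0.0121). Among receptors 2 of 4 rose, ITGB2, the integrin chain shared by complement receptors 3 and 4, at 1.01 ± 0.29 (adjusted p = 0.0402), and VSIG4, a macrophage receptor for C3 fragments, at 0.70 ± 0.19 (adjusted p = 0.0337). A dimmer VSIG4 probe set rose by 0.77 (adjusted p = 0.0121) and another, at 0.44, did not pass (adjusted p = 0.341). The calls of CFP and C4BPA held in 22 of 22 settings, counting the reported fit, that of CFD in 14 and those of ITGB2 and VSIG4 in 13. Those of ITGB2 and VSIG4 ended without adult RFH replicate 1 or any single juvenile array.

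CD55, the decay-accelerating factor, rose by 1.01 ± 0.21 (SE, limma adjusted p = 0.00986) in its brightest probe set. Its 5 probe sets disagree, since 2 rose and 3 did not pass, and their mean gave 0.34, which passed. The CD55 call held in 22 of 22 settings, counting the reported fit. The other membrane regulator measured, CD46, had 0.36 ± 0.12 in its brightest probe set and did not pass (adjusted p = 0.0647). A dimmer CD46 probe set rose by 0.53 (adjusted p = 0.0409), and another, at 0.39, did not pass (adjusted p = 0.43). None of 6 recognition and protease genes and none of 6 terminal genes passed, where limma's unadjusted p was under 0.05 for 2 in each list. The nearest to passing were C1S, at 0.42 (adjusted p = 0.0732), and C5, at -0.77 (adjusted p = 0.0537) with group means of 4.55 in adult RFH and 5.33 in juvenile RFH, under the array medians. The count of 6 was 3 without juvenile RFH replicate 1, when CFD, ITGB2 and VSIG4 were lost, and it was 9 with arrays centred on their medians. Without adult RFH replicate 3, the array with the low ribosomal and EF1A control values, 8 rose and 1, C5, fell.

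**Figure D4:**
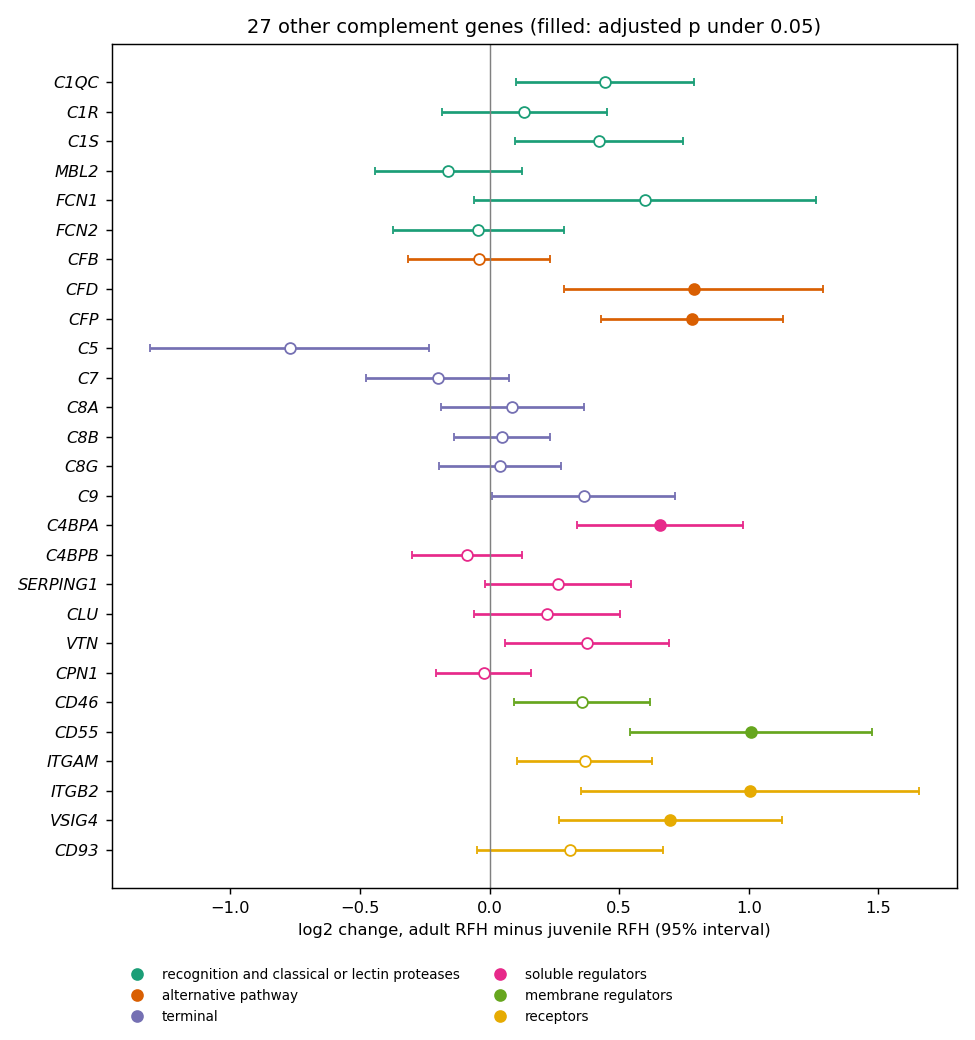
Log2 change, adult RFH minus juvenile RFH (x axis, with 95% interval), of 27 other complement genes coloured by role; filled points have an adjusted p under 0.05. The 6 genes that rose lie between 0.66 and 1.01 and belong to the alternative pathway, the regulators and the receptors.

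In juvenile RFH against juvenile WT, limma called none of the 27 (1 at an unadjusted p under 0.05, C1QC). C1QC encodes another C1q chain and read 13.12, 13.20, 12.63 and 12.62 in the adult RFH leaflets, 12.42, 12.49 and 12.44 in the juvenile RFH leaflets and 12.02, 11.68 and 11.87 in the juvenile WT leaflets. It stood in the same 3 steps as C1QA, without overlap. Its changes were 0.44 ± 0.16 (SE, adjusted p = 0.0764) between adult and juvenile RFH and 0.59 ± 0.17 (adjusted p = 0.187) between juvenile RFH and WT, and neither passed. In the other roles the smallest p belonged to CFD, at 0.46 (adjusted p = 0.467), to the pore component C9, at -0.28 (0.537), and to clusterin (CLU), a soluble inhibitor of pore assembly, at -0.19 (0.612). Among membrane regulators and receptors it belonged to CD55, at -0.19 (0.795), and to ITGAM, the alpha chain of complement receptor 3, at -0.23 (0.501). In the fit of only the juvenile groups C1QC passed (adjusted p = 0.0282), as did ITGB2 (0.0277). Adult RFH against juvenile WT gave 10 of 27 higher and none lower, beside 22.7% and 10.6% of all genes. The 10 were C1QC, C1S, CD46 and CD93 and the 6 that rose between adult and juvenile RFH. Counting the reported fit, the calls of C1QC, C1S, CFD, CFP, C4BPA, ITGB2 and VSIG4 held in 22 of 22 settings. That of CD55 held in 19, that of CD93 in 13 and that of CD46 in 8. The CD55 call was lost with the mean of its probe sets. A dimmer CD55 probe set rose by 0.63 (adjusted p = 0.0434), and those at 0.08, -0.08 and -0.23 did not pass. For VSIG4 a dimmer probe set rose by 1.05 (adjusted p = 0.00168) and another, at 0.46, did not pass (adjusted p = 0.27). A dimmer CD46 probe set rose by 0.52 (adjusted p = 0.0291) and another differed by -0.14 (adjusted p = 0.764). The dimmer CD93 probe set differed by 0.11 and was not called (adjusted p = 0.471). The pore component C7 was not called in its brightest probe set (-0.18, adjusted p = 0.315), while its other probe set fell by 0.89 (adjusted p = 0.00691), and with the mean of both C7 was called lower.

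Leaflet RNA comes from a mixture of cells, in which fewer cells of a type and less RNA per cell cannot be told apart. Of 13 macrophage markers 10 were measured, and 5 rose with none falling in adult against juvenile RFH, beside 11.4% and 7.85% of all genes. The mean of the 10 was 10.51, 10.69, 10.07 and 10.07 in the adult RFH leaflets, 9.62 to 9.68 in the juvenile RFH leaflets and 9.29 to 9.42 in the juvenile WT leaflets. It was higher in adult replicates 1 and 2 than in 3 and 4, as C1QA was, whereas C4A was lowest in adult replicate 1 and highest in 4. This order of adult arrays was not particular to macrophage markers. The endothelial mean was 9.40 and 9.62 in adult replicates 1 and 2, against 8.62 and 9.21 in 3 and 4. The means of T and B lymphocyte, adipocyte and cardiac muscle markers had the same order, and those of the other lists did not. In juvenile RFH against WT none of the 10 macrophage markers passed (1 at an unadjusted p under 0.05). Endothelial markers (9 of 9 measured) had group means in the same order as C1QA, with overlap between the RFH groups, of 9.21 ± 0.43 (SD) in the adult RFH leaflets, 8.60 ± 0.16 in the juvenile RFH leaflets and 8.23 ± 0.17 in the juvenile WT leaflets. Of the 9, 2 rose between adult and juvenile RFH and 6 between adult RFH and WT, beside 11.4% and 22.7% of all genes. Between adult RFH and WT 8 of the 10 macrophage markers rose and none fell. In adult against juvenile RFH 1 of 4 neutrophil and 1 of 3 adipocyte markers rose, and 3 of 7 valve interstitial markers fell. The part of cell content in the complement values was not tested.

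Erythroid markers (3 of 4 measured) averaged 6.28 to 7.24 in the adult RFH leaflets, 7.56 to 8.48 in the juvenile RFH leaflets and 6.83 to 7.34 in the juvenile WT leaflets. The 3 markers did not move together, since AHSP was 5.53 to 7.06 in the juvenile RFH leaflets, against 4.39 to 5.14 in the juvenile WT leaflets. ALAS2 was 7.32 to 8.77 in the juvenile RFH leaflets, against 6.07 to 7.17 in the juvenile WT leaflets, while HBB was 9.51 to 9.82 in the juvenile RFH leaflets, against 9.71 to 10.01 in the juvenile WT leaflets. None of the 3 was called there (2 at an unadjusted p under 0.05). In adult against juvenile RFH, where CR1 changed by -0.07, 2 of the 3 markers fell and none rose, beside 7.85% and 11.4% of all genes. In juvenile RFH replicates 1, 2 and 3 CR1 read 9.58, 9.92 and 10.50, and the erythroid mean was 8.04, 8.48 and 7.56. In juvenile WT replicates 1, 2 and 3 CR1 read 8.05, 8.07 and 8.81, and the erythroid mean was 6.83, 6.88 and 7.34, in the same order. In adult RFH replicates 1 to 4 CR1 read 9.95, 10.10, 9.69 and 9.98, and the erythroid mean was 7.24, 6.62, 6.70 and 6.28. The part of erythroid content in the CR1 values was not tested. The 5 hepatocyte markers had a mean of 5.51 ± 0.41 in the adult RFH leaflets (SD, n = 4), 5.37 ± 0.05 in the juvenile RFH leaflets and 5.06 ± 0.16 in the juvenile WT leaflets (n = 3 each). These means lay under the array medians. None of the 5 passed in any of the 3 comparisons (1 at limma's unadjusted p under 0.05, in adult RFH against WT). SERPINA1 differed from the list mean, at 7.98, 5.34, 9.09 and 6.86 in the adult RFH leaflets. It read 6.75 to 6.97 in the juvenile RFH leaflets and 5.26 to 5.95 in the juvenile WT leaflets.

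**Figure D5:**
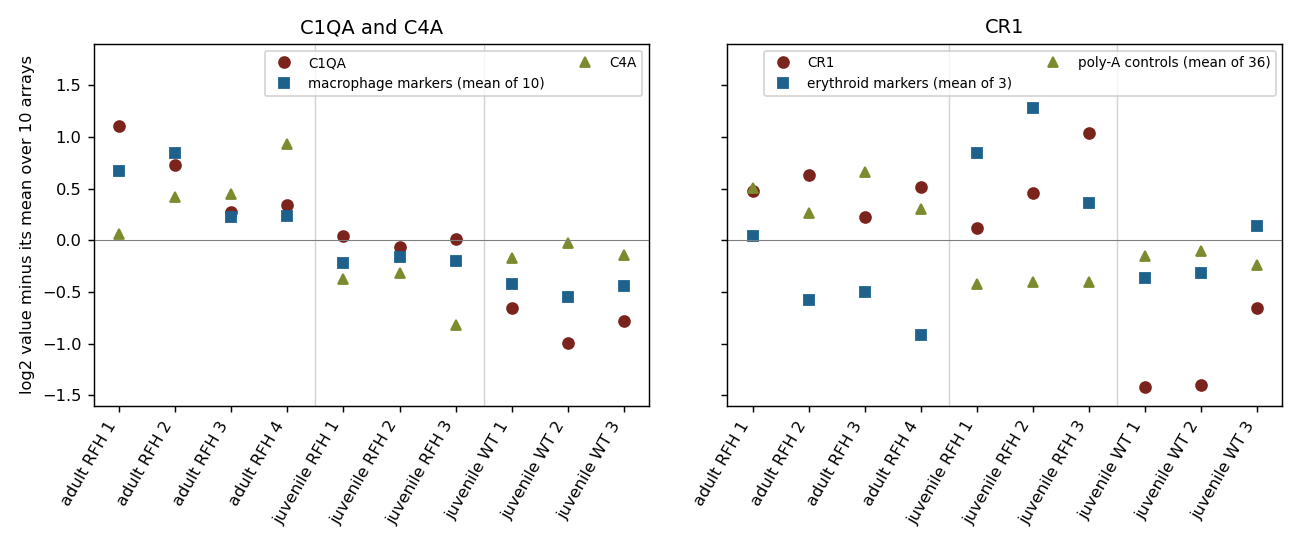
Log2 values minus their own mean over 10 arrays (y axis) for each array (x axis), with C1QA, C4A and the mean of 10 macrophage markers on the left, and CR1, the mean of 3 erythroid markers and the mean of 36 poly-A control probe sets on the right. C1QA and the macrophage mean are highest in adult RFH replicates 1 and 2, where C4A is not, and CR1 is lowest in the 3 WT arrays.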

How the data were processed

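The deposited table holds log2 values, 1 per probe set and array. The unit was read from the values, 2.01 to 14.96. R 2.15.2 is named per the submitters' processing notes, and no source used here gives the authors' background correction or normalization. After 124 control probe sets were set aside, group means of 23999 probe sets were fitted to all 10 arrays with limma 3.58.1 in R 4.3.3 (lmFit, eBayes, two-sided, Benjamini-Hochberg over all probe sets, 7 residual and 3.57 prior degrees of freedom). Errors are moderated SE and 95% intervals. The number of arrays limits the precision. The fit was also run on simulated data in which all groups had the same spread. The groups here differ in spread, so that run cannot show how the difference affects the calls.

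The genes and lists were chosen with earlier results of these data known. All members are named, and of the 46 other complement genes those called, or with the smallest p in a role without a call. Likeness names the nearest genes. Marker lists are described without a test, and control probe sets were compared by exact permutation. Symbols come from the array annotation, whose gene IDs for all 6 measured genes matched RefSeq. Alternatives covered scaling, filters, the variance prior, weights, a replicate block, probe set choice and leaving out each array.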

Additional observations from a re-analysis of the deposited data

Results flagged for a closer look

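Only the adult RFH group, with 4 arrays, was large enough to be checked for an array far from the others, and CD59 had one. In its brightest probe set, adult RFH replicate 4 read 12.32 and the other adult arrays 12.14 to 12.16, so that its gap to the nearest of them was 0.875 of the group's range, above Dixon's 95% critical value for 4 arrays. Of 7 probe sets 1 was marked in this way, and chance marks about 1 in 20. Without that array the CD59 change between adult and juvenile RFH was 0.42, and it passed.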

How the results depend on the processing

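The directions of the called changes of the 6 complement genes held in all 21 alternatives. The 4 genes called between adult and juvenile RFH became 1 with an added 2-fold threshold and 3 to 4 with 1 array left out. The 1 called between juvenile RFH and WT became 0 with probe sets below the median left out, with values below 4 raised to 4, with probe sets averaged per gene and with the replicate block, 2 with only the groups compared and with array weights, and 0 to 1 with 1 array left out. With the block CR1 was 1.69 (adjusted p = 0.0869). The 6 called between adult RFH and juvenile WT became 3 with the 2-fold threshold and 5 to 6 with 1 array left out. Of the other complement genes, 6 became 3 with values raised to 4, 2 with the 2-fold threshold and 3 to 9 with 1 array left out. Between juvenile RFH and WT 0 became 2 with only the groups compared and 1 with array weights, and stayed 0 with 1 array left out. Between adult RFH and juvenile WT 10 became 4 with the 2-fold threshold and 7 to 11 with 1 array left out. The uncalled CR1 change between adult and juvenile RFH, -0.28 to 0.18 with 1 array left out, turned to 0.0060 without adult RFH replicate 3 and to 0.18 without juvenile RFH replicate 3. Over all probe sets 4025 calls became 2308, 28 became 872 and 7081 became 6103 with only the groups compared, and 28 became 1171 with array weights, 10 with values raised to 4, 17 with the block and 2 to 71 with 1 array left out. Deviations from the group means correlated at -0.16 to 0.19 between same-numbered arrays, so the numbers were not taken as pairs, and 1 of 3 adult RFH arrays correlated best with its own number in juvenile RFH. Causes were not tested.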
